A study of Mus musculus with 6 samples.

Results

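The genes described here are the clustered, replication-dependent histone genes of the mouse, chosen by symbol alone as every gene column whose name begins with Hist1h, Hist2h, Hist3h or Hist4h. There were 64 among the 17369 gene columns: 6 for the linker histone H1, 17 for H2A, 16 for H2B, 12 for H3 and 13 for H4. The cells were T helper cells polarised in culture towards the Th9 type, which is named for the cytokine IL-9. Naive CD4 T cells taken from mouse spleens were cultured with an antibody to interferon gamma at 20 µg/ml, IL-4 at 20 ng/ml and hTGFβ at 3 ng/ml, for 48 h in all, then purified with CD4 beads and profiled with the 10x Genomics 3′ v3 kit. Cells of 3 wild-type libraries (A, B and C) were compared with those of 3 libraries from Cblb-/- mice (D, E and F), which lack the ubiquitin ligase CBL-B, a negative regulator of T cell activation. Both genotypes received the same cytokines and antibody, and no untreated group is part of the comparison. The design text counts 3 mice of each genotype. The labels do not say how mice map to cultures or which part of Cblb was deleted, so the p-values measure the spread between these libraries, which may be technical.

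H2A, H2B, H3 and H4 form the protein core of the nucleosome, around which DNA is wound, and H1 binds the linker DNA between nucleosomes. The clustered genes supply the bulk of these proteins while DNA is copied, and dividing T cells therefore express them mainly in S phase. Their mRNAs usually end just past a short stem-loop, bound by the protein SLBP, and carry no poly(A) tail, whereas the kit primes on poly(A). The values are therefore those of the histone transcripts that were captured, and cannot be read as the total histone mRNA of a cell.

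The stem-loop is the element that sets these mRNAs apart, so it is shown for members of each type that the results turn on. In the GENCODE M21 models (mm10) a perfect stem of 6 pairs with a loop of 4 bases followed the stop codon in 46 of the 64 genes. The sequence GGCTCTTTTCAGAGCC was shared by 26 genes of the H1, H2A, H2B and H3 types, and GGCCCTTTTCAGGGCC by 7 H4 genes. Capitals mark the stem-loop, each sequence is written 5′ to 3′ on the gene's strand, and positions are those of the printed stretch.
Hist1h1e (chr13:23621777-23621802, minus strand): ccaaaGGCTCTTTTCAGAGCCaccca
Hist1h2ap (chr13:21833026-21833049, minus strand): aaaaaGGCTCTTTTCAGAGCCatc
Hist2h2ac (chr3:96220413-96220438, minus strand): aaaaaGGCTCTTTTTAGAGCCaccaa
Hist1h2bj (chr13:22043633-22043658, plus strand): ccaaaGGCTCTTTTCAGAGCCacgca
Hist1h3a (chr13:23761885-23761910, minus strand): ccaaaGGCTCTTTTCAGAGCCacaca
Hist1h3c (chr13:23745042-23745067, minus strand): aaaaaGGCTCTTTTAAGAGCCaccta
Hist1h4i (chr13:22040961-22040986, minus strand): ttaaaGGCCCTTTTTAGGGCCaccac
Hist1h4d (chr13:23581945-23581970, plus strand): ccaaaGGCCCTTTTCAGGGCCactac
Of the other 18 genes, 11 have models that stop at the stop codon, among them Hist1h1b, so that the annotation does not reach the stem-loop.

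Promoter sequences from RefSeq (GRCm38.p6, 250 bases before to 50 after each start) matched 59 of the 64 genes. They are shown for Hist1h2bj, which had the largest difference on the log2(ppm + 1) scale among the tested histone genes, for Hist1h1a, which had the highest ratio between cells rich and poor in S phase transcripts among the tested histone genes, and for Hist1h1e, which holds the motif common to H1 promoters. Capitals mark 3 motifs on either strand: the CCAAT box, which also appears as ATTGG, the TATAAA box, and the motif AAACACA.
Hist1h2bj (chr13:22042948-22043247, plus strand): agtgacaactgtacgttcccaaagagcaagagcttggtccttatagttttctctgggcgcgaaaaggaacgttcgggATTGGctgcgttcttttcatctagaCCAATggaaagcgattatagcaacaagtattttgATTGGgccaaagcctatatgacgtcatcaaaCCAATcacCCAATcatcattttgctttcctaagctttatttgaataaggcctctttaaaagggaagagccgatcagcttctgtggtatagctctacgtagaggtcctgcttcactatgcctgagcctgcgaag
Hist1h1a (chr13:23763418-23763717, plus strand): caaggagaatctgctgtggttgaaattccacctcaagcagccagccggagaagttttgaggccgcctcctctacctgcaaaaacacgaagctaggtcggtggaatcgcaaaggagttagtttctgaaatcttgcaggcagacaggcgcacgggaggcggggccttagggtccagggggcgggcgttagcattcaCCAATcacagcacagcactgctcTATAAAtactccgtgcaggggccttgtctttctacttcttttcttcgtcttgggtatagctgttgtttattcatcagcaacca
Hist1h1e (chr13:23622509-23622808, minus strand): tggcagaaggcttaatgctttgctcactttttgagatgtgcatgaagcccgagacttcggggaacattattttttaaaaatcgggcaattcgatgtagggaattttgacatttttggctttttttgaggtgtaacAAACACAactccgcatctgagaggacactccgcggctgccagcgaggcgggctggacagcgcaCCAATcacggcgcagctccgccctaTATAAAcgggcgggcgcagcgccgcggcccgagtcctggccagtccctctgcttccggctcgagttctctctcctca
CCAAT was present in 84.7% of the histone promoters, against 37.9% of 27025 RefSeq promoters of the same length, in every H1, H2A, H2B and H3 promoter and in 3 of 12 H4 promoters. TATAAA was in 55.9% against 14.2%. The octamer ATTTGCAT was in 6 of 17 H2A and 5 of 14 H2B promoters and in no other type, 18.6% of the histone promoters against 1.75% of all. AAACACA was in 5 of 6 H1 promoters and 11.9% of all histone promoters, against 7.14% of all. Both strands were searched and each motif was counted by itself, so that motifs may share bases.

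The 6 libraries held 27258 cells, with 3423 to 5666 cells each, a median of 35573 to 39628 unique molecular identifiers (UMIs) per cell and 149381789 to 229387950 UMIs in total. Cblb itself was at 32.6, 31.1 and 30.9 ppm in libraries A, B and C and at 18.4, 15 and 18 ppm in D, E and F, which is lower but far from 0; 3′ tags outside the deleted part would still be counted. Levels here are parts per 1000000 (ppm) of the depth-corrected counts of a library, summed over its cells. The 6 T cell markers, Cd4 and Cd3e among them, summed to 1417 to 1470 ppm in the wild-type libraries and 1337 to 1405 ppm in the knockout libraries. Markers of other cells were low: the 2 CD8 markers summed to 5.68 to 7.2 ppm in the wild-type libraries and 10.2 to 11.1 ppm in the others, with Cd8a at 0.26 ppm or less, and the 4 B cell markers to 2.90 to 3.51 ppm and 5.18 to 9.04 ppm, with Ms4a1 at 0.07 ppm or less. Most of these 2 sums came from Cd8b1 and Cd79b, which were higher in every knockout library than in any wild-type library. Cd8b1 was at 5.61 to 7.11 ppm in wild-type and 10.04 to 10.89 ppm in knockout libraries. Cd79b was at 2.38 to 3.09 ppm and 4.8 to 8.76 ppm. Myeloid, mast cell or basophil, natural killer and erythroid markers each summed to at most 3.57 ppm in a library. Their part in the histone differences was not tested. A cell barcode found in more than 1 library occurred 76 times (152 cells).

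The captured histone transcripts were at a lower level in Cblb-/- than in wild-type Th9 cells, in every histone type. The 64 genes together made up 946, 956 and 903 ppm in the wild-type libraries and 669, 711 and 652 ppm in the knockout libraries. The groups did not overlap, and the knockout mean of 677 ± 30.4 ppm (SD, n = 3) was 0.724 times the wild-type mean of 935 ± 28.7 ppm (SD, n = 3). Per cell, this was a mean of 34.3 to 36.5 corrected counts in wild-type and 24.9 to 26.9 in knockout libraries. In cells of each library taken singly, Hist1h2bj had a corrected count in 61.3% to 65.5% of wild-type and 29.7% to 36.8% of knockout cells, while Hist1h2ap had one in 95.3% to 97.3% and 92.6% to 94.6%. No cell type without histone genes was present to set the background of such shares. In sums over cells, fewer cells that express a gene and less RNA per cell cannot be told apart.

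The ratio of knockout to wild type was lowest in the H2B and H3 genes. H2B genes summed to 94.1, 92.5 and 109 ppm in wild-type libraries and to 51.4, 52.4 and 61.5 ppm in knockout libraries, a ratio of 0.559. H3 genes summed to 64.8, 70.2 and 76.4 ppm against 34.1, 40.9 and 43.2 ppm, a ratio of 0.56. H2A genes, at 336, 369.7 and 282 ppm against 256, 234 and 215 ppm, had a ratio of 0.715. No knockout library reached any wild-type library in these 3 types. H4 genes summed to 94.7, 95.3 and 102 ppm and to 73.7, 79.4 and 76.3 ppm (ratio 0.784). H1 genes summed to 357, 329 and 332 ppm and to 254, 304 and 255 ppm (ratio 0.799). H1 came closest to overlap, through knockout library E, but the groups were separate in H1 and H4 as well. Single genes made up much of the H2A and H1 sums. Averaged over all libraries, Hist1h2ap gave 196 of 282 ppm in H2A, and Hist1h1b gave 150 of 305 ppm in H1. The groups overlapped in both genes, so the ratios of these types depend largely on them. The sums have no test of their own, and the difference between types was not tested.

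Of the 64 genes, 22 had a mean of at least 5 ppm and were tested with limma on log2(ppm + 1), adjusted by Benjamini-Hochberg over all 8475 genes tested. At an adjusted p under 0.05, 17 of the 22 fell in knockout cells and none rose, while 13.4% of all tested genes were called lower and 11% higher. Limma called 4 of 5 tested H1 genes, 4 of 7 H2A, 4 of 4 H2B, 3 of 3 H3 and 2 of 3 H4. The difference was negative in all 22. Their median was -0.54 on the log2(ppm + 1) scale, against -0.01 over all tested genes. The groups were separate in 18 of the 22, with knockout lower in each, against 25.6% of all tested genes with knockout lower and 19.7% with knockout higher. The filter uses the mean of both groups, and 2 of the called genes, Hist1h2ak and Hist1h2ab, had a knockout mean below it. Leaving out any 1 library gave 15 to 20 calls.

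**Figure D1:**
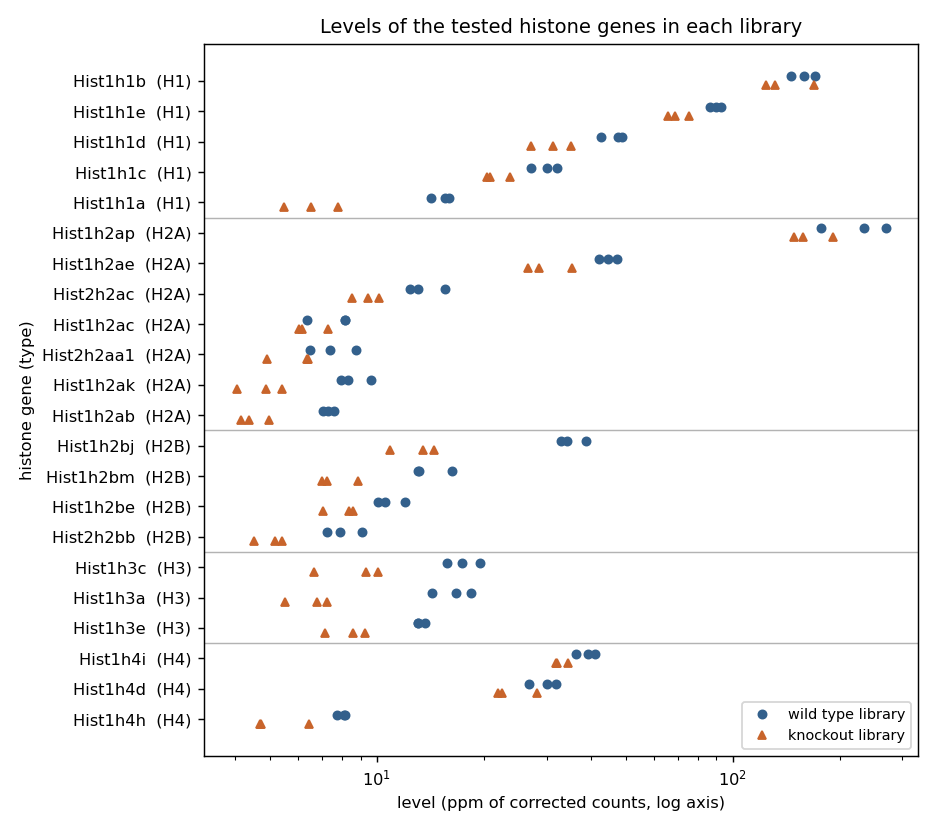
Level of each of the 22 tested histone genes (rows, grouped by type) in ppm of corrected counts on a log axis, with 1 circle for each wild-type library and 1 triangle for each knockout library. The groups are separate for Hist1h2bj, Hist1h3a and Hist1h1a and overlap for Hist1h1b, Hist1h2ap, Hist1h4d and Hist1h2ac.

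The H2B genes included the largest fall among the 22 tested genes on the log2(ppm + 1) scale. Hist1h2bj was at 34.2, 32.9 and 38.7 ppm in the wild-type libraries and at 10.9, 13.4 and 14.4 ppm in the knockout libraries, which differ by -1.39 in log2 units (SE 0.10, adjusted p = 0.000462 by limma). The gap between the groups was several times the spread within either. Hist1h2bm stood at 13.1, 13.1 and 16.3 ppm in the wild-type libraries and at 6.99, 7.22 and 8.86 ppm in the knockout libraries, and the groups differed by -0.80 in log2 units (SE 0.11, adjusted p = 0.00321 by limma). For Hist2h2bb the levels were 7.87, 7.24 and 9.10 ppm in the wild-type libraries and 4.51, 5.17 and 5.40 ppm in the knockout libraries, a change of -0.59 in log2 units (SE 0.10, adjusted p = 0.0061 by limma). Hist2h2bb lies in the smaller histone cluster on chromosome 3, while the other tested H2B genes lie on chromosome 13. Hist1h2be was at 10.5, 10.1 and 12 ppm in the wild-type libraries and at 8.57, 7.06 and 8.33 ppm in the knockout libraries, which differ by -0.40 in log2 units (SE 0.09, adjusted p = 0.0174 by limma). The model of Hist1h2be overlaps that of Hist1h1e on the same strand, so their reads may not be separable. None of these 4 genes had groups that overlapped.

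The 3 tested H3 genes were all called lower, against 13.4% of all tested genes. Of the 12 H3 genes 8 were separate with knockout lower, against 17.9% of all genes above 0. Hist1h3a stood at 14.3, 16.7 and 18.3 ppm in the wild-type libraries and at 5.50, 6.78 and 7.22 ppm in the knockout libraries, and the groups differed by -1.22 in log2 units (SE 0.11, adjusted p = 0.000898 by limma). For Hist1h3c the levels were 15.8, 17.3 and 19.4 ppm in the wild-type libraries and 6.66, 9.34 and 10.1 ppm in the knockout libraries, a change of -0.95 in log2 units (SE 0.14, adjusted p = 0.00437 by limma). Hist1h3e was at 13.1, 13 and 13.7 ppm in the wild-type libraries and at 7.16, 9.28 and 8.54 ppm in the knockout libraries, which differ by -0.62 in log2 units (SE 0.09, adjusted p = 0.00369 by limma). All 3 were lower in every knockout library than in any wild-type library. Hist1h3a lies at chr13:23761853-23762386 and is the neighbour of Hist1h1a, the H1 gene with the largest fall.

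Among the linker histones, the differences ranged from -0.17 for Hist1h1b to -1.11 for Hist1h1a, each gene encoding an H1 subtype. Hist1h1a stood at 15.6, 14.2 and 16 ppm in the wild-type libraries and at 5.49, 7.75 and 6.52 ppm in the knockout libraries, and the groups differed by -1.11 in log2 units (SE 0.11, adjusted p = 0.00101 by limma). For Hist1h1d the levels were 47.7, 42.8 and 48.8 ppm in the wild-type libraries and 27.1, 31.3 and 35 ppm in the knockout libraries, a change of -0.57 in log2 units (SE 0.09, adjusted p = 0.0061 by limma). Hist1h1c was at 30.0, 27.2 and 32.2 ppm in the wild-type libraries and at 20.4, 20.8 and 23.7 ppm in the knockout libraries, which differ by -0.44 in log2 units (SE 0.08, adjusted p = 0.00787 by limma). In these 3 genes the groups were clearly apart. Hist1h1e stood at 93, 86.2 and 89.6 ppm in the wild-type libraries and at 68.8, 75.3 and 66 ppm in the knockout libraries, and the groups differed by -0.35 in log2 units (SE 0.06, adjusted p = 0.00592 by limma). For Hist1h1b the levels were 171, 158 and 146 ppm in the wild-type libraries and 132, 169 and 124 ppm in the knockout libraries, a change of -0.17 in log2 units (SE 0.11, adjusted p = 0.298 by limma). Hist1h1b did not pass the test: knockout library E lay within the wild-type range, and without E the log2 difference was -0.30 and was called. The testis H1 gene Hist1h1t was at or close to 0, with at most 2 corrected counts in any library.

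H2A pairs with H2B in the nucleosome, and 4 of its 7 tested genes were called. Hist1h2ae was at 47.4, 44.5 and 42.2 ppm in the wild-type libraries and at 28.6, 35.4 and 26.5 ppm in the knockout libraries, which differ by -0.56 in log2 units (SE 0.10, adjusted p = 0.00816 by limma). Hist2h2ac stood at 12.4, 13 and 15.5 ppm in the wild-type libraries and at 8.51, 10.1 and 9.44 ppm in the knockout libraries, and the groups differed by -0.50 in log2 units (SE 0.09, adjusted p = 0.0101 by limma). For Hist1h2ak the levels were 7.90, 8.27 and 9.63 ppm in the wild-type libraries and 4.03, 4.87 and 5.41 ppm in the knockout libraries, a change of -0.74 in log2 units (SE 0.11, adjusted p = 0.00434 by limma). The groups of these genes were separate, although Hist1h2ak was at low levels. Hist1h2ab was at 7.55, 7.06 and 7.28 ppm in the wild-type libraries and at 4.14, 4.97 and 4.38 ppm in the knockout libraries, which differ by -0.60 in log2 units (SE 0.08, adjusted p = 0.00272 by limma). Hist1h2ap stood at 234, 269.7 and 178 ppm in the wild-type libraries and at 191, 158 and 148 ppm in the knockout libraries, and the groups differed by -0.44 in log2 units (SE 0.15, adjusted p = 0.0705 by limma). Hist1h2ap did not pass the test: wild-type library C lay below knockout library D, and without C the log2 difference was -0.60 and was called. The other tested H2A genes, Hist1h2ac (-0.19, adjusted p = 0.242) and Hist2h2aa1 (-0.31, adjusted p = 0.106), were not called by limma either.

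H4 forms a pair with H3 in the nucleosome, and 2 of its 3 tested genes were called. For Hist1h4i the levels were 41, 36.2 and 39.3 ppm in the wild-type libraries and 32.2, 31.9 and 34.4 ppm in the knockout libraries, a change of -0.23 in log2 units (SE 0.06, adjusted p = 0.0245 by limma). Hist1h4d was at 26.8, 30.1 and 31.9 ppm in the wild-type libraries and at 21.9, 28.2 and 22.4 ppm in the knockout libraries, which differ by -0.29 in log2 units (SE 0.10, adjusted p = 0.0779 by limma). Knockout library E lay within the wild-type range of Hist1h4d, and without E that gene was called at -0.40. Hist1h4h stood at 7.74, 8.10 and 8.13 ppm in the wild-type libraries and at 4.73, 6.43 and 4.69 ppm in the knockout libraries, and the groups differed by -0.53 in log2 units (SE 0.11, adjusted p = 0.013 by limma). The groups did not overlap for Hist1h4i and Hist1h4h, but both calls depended on single libraries: Hist1h4i was no longer called without A, C or D, and Hist1h4h without B or C. The call of Hist1h2be was likewise lost without A or C.

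**Figure D2:**
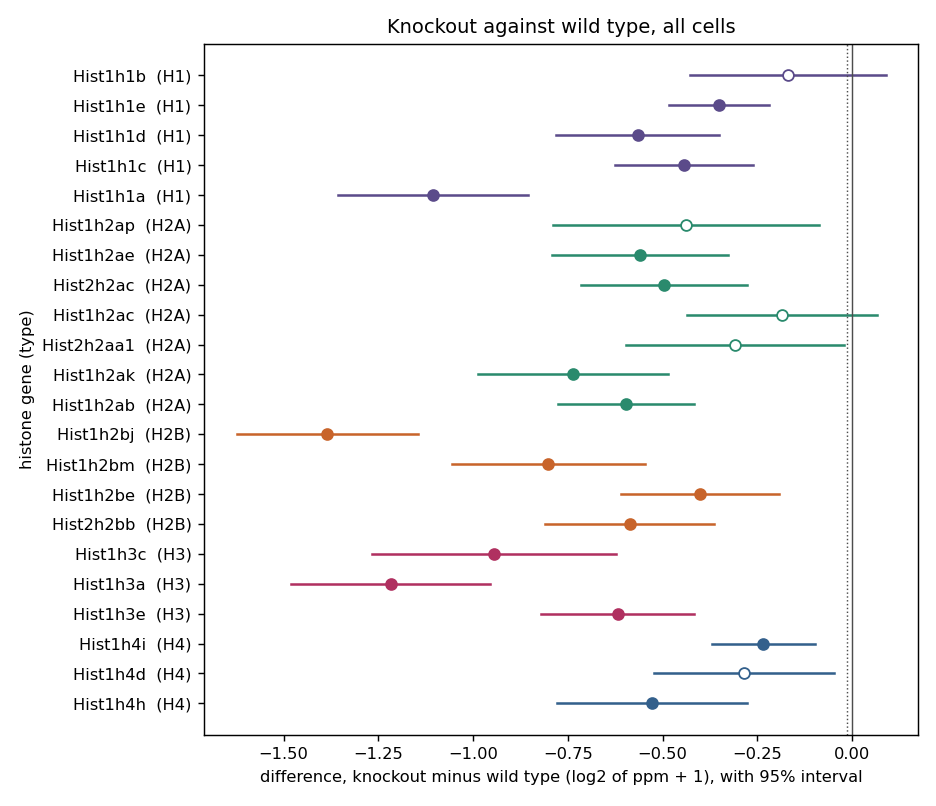
Difference between knockout and wild type in log2(ppm + 1) for the 22 tested histone genes with 95% intervals. Filled points passed limma's adjusted p of 0.05 (17 genes) and open points did not (5 genes), the solid line is 0 and the dotted line the median of all 8475 genes. All points lie left of 0, from -0.17 for Hist1h1b to -1.39 for Hist1h2bj.

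The 42 genes under the filter had means from 0.0047 to 4.98 ppm. In 27 of them every knockout library was below every wild-type library, in 14 the groups overlapped, and in 1, Hist1h4m, knockout was higher. Among all genes under the filter 10.6% were separate with knockout lower and 20.6% with knockout higher. Over all 64 genes 45 were separate with knockout lower, against 17.9% of all genes above 0, and 20.2% of these had knockout higher. The 27 and the 45 include genes that were separate by very little. Hist2h2aa2 had 1 corrected count in each of A, B and C and 0, 1 and 1 in D, E and F. Hist1h2bf was at 0.531 ppm in B and 0.528 ppm in D, its lowest wild-type and highest knockout levels. Hist1h3i was just outside the filter, at 6.27, 6.67 and 7.39 ppm in A, B and C and at 2.32, 3.62 and 3.62 ppm in D, E and F. Apart from Hist1h4m, the genes whose knockout mean was above that of wild type were Hist2h3c1 (ratio 1.32), Hist2h3c2 (1.24) and Hist2h2be (1.10), all from the chromosome 3 cluster, and the groups overlapped in each.

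Histone genes of a type are near copies of each other, so reads can be assigned to a copy or dropped. Of the windows of 100 bases in the model of Hist1h2ap 92.2% also occurred in other histone genes, and of Hist1h2bj 40.1%. Of the 22 tested genes 9 had under 10% of their windows in another member, and 6 of these 9 were called lower, against 13.4% of all tested genes. Hist1h1a and Hist2h2bb had no such window and fell by 1.11 and 0.59 on the log2(ppm + 1) scale, while Hist1h1b and Hist1h4d, which also had none, were not called. Values of single genes with many shared windows are uncertain. Reads moved between copies of 1 type leave the sum of that type as it is, but dropped reads lower it. How many reads were dropped was not measured.

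The genes lie in clusters, 51 of them on chromosome 13 between 21715763 and 23764406 (mm10), 10 on chromosome 3, 2 on chromosome 11 and 1 on chromosome 6. Gaps of over 100000 bases part the chromosome 13 genes into 3 runs, of 17, 5 and 29 genes. The run of 5 (chr13:22035164-22043676) holds Hist1h2ah, Hist1h2bk, Hist1h4i, Hist1h2ag and Hist1h2bj, and had a median knockout to wild-type ratio of 0.382. All 5 were separate with knockout lower, a pattern found in 17.9% of all genes above 0. Medians were 0.703 in the run of 17 and 0.674 in the run of 29, with 12 and 22 genes separate in that direction. Of the genes that are no histone genes and lie within this stretch, only Zfp322a (-0.10) and Abt1 (-0.05) passed the filter, and neither was called.

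**Figure D3:**
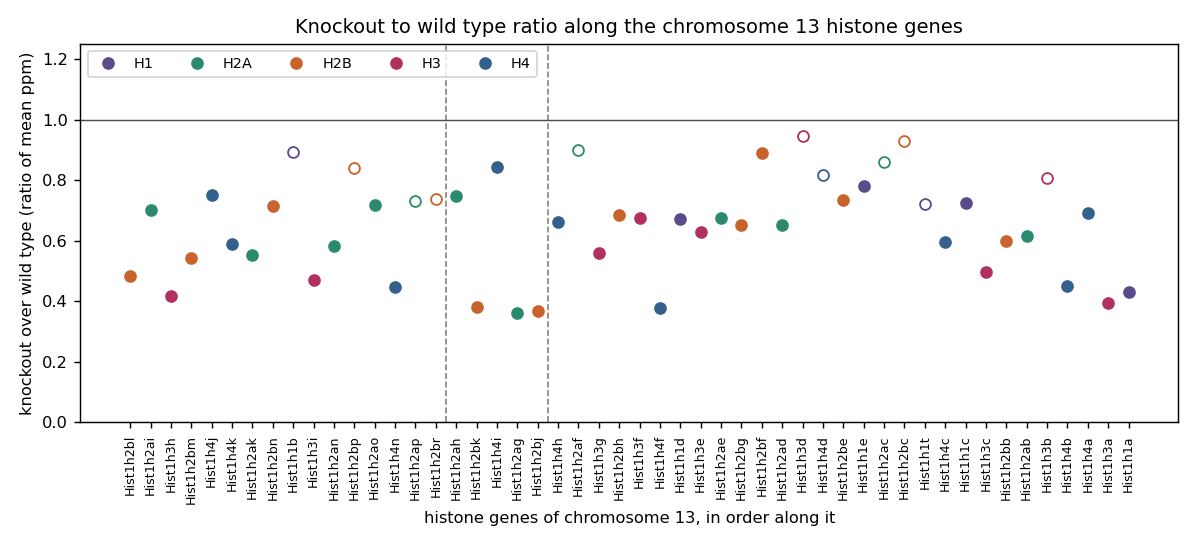
Ratio of knockout to wild-type mean ppm for 50 histone genes of chromosome 13 in their order along it, coloured by type, with dashed lines between the 3 runs. Filled points are genes whose groups did not overlap, the line at 1 marks no difference, and Hist1h4m is left out because its wild-type level was close to 0. In the middle run Hist1h2bk, Hist1h2ag and Hist1h2bj lie between 0.363 and 0.382.

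H2A and H2B genes often start back to back and share the sequence between them. There were 10 such pairs with starts 176 to 302 bases apart on opposite strands. In 6 pairs both genes were separate with knockout lower, in 2 pairs 1 of the genes was, and in 2 pairs neither was. Of all genes above 0, 17.9% were separate in that way. The 6 include Hist1h2ad and Hist1h2bf, and Hist1h2bf was separate only by 0.531 ppm in B against 0.528 ppm in D. The promoter printed above for Hist1h2bj overlaps that of Hist1h2ag, whose start lies 270 bases away on the minus strand. Hist1h2ag was at 3.49, 3.87 and 4.02 ppm in A, B and C and 1.19, 1.37 and 1.56 ppm in D, E and F, so that the ratios within this pair were 0.363 and 0.367. Other pairs were unequal: Hist1h2ah and Hist1h2bk had ratios of 0.749 and 0.382, and Hist2h2ac and Hist2h2be 0.686 and 1.10.

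The models were also sorted by where they end, a grouping chosen after the values were seen. Of 23 genes whose model ends within 100 bases of the stem-loop, 19 were separate with knockout lower, against 17.9% of all genes above 0, and the median ratio was 0.601. Of 23 genes whose model runs on past it, 14 were separate and the median was 0.75, and 14 of these 23 hold the poly(A) signal AATAAA past the stem-loop. Of the 11 genes whose model stops at the stop codon 9 were separate, with a median of 0.588. Of the other 7 genes, whose models hold no stem-loop, 3 were separate and the median was 0.797. The stem-loop classes differ in type, level and cluster, and their difference has no test.

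Most tested histone genes were at a higher level in cells with more S phase or G2 and M phase transcripts. All cells together were ranked by the summed corrected counts of 43 S phase genes and cut into 5 parts of about equal size (quintiles), and the same was done with 52 genes of G2 and M phase. From the lowest to the highest S quintile the mean summed histone level went from 773 to 1045 ppm in wild-type libraries and from 574 to 778 ppm in knockout libraries. Over the G2M quintiles it went from 698 to 1056 ppm and from 499 to 809 ppm. The top quintile of S exceeded the bottom quintile in all 6 libraries for 16 of the 22 tested genes, with a median ratio of 1.28, and the top quintile of G2M did so for 19, with a median of 1.59. Quintiles also differed in depth before correction, with a median of 44987 UMIs in the lowest and 36167 in the highest S quintile and of 31500 and 45494 in the lowest and highest G2M quintile, and the part of depth in these ratios was not tested.

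Among the tested genes Hist1h1a had the highest S ratio and none of the rise along G2M. Its level in the top S quintile was 2.67 to 3.45 times that in the bottom one, while its G2M ratio lay between 0.592 and 0.949. Hist1h3a (S ratio 1.58, G2M ratio 1.08) and Hist1h4i (1.36 and 1.09) also leaned to S phase. At the other end, Hist1h2ab (0.986 and 2.19), Hist1h4d (0.95 and 1.95) and Hist1h4h (0.943 and 1.95) had S ratios close to 1 and high G2M ratios. In all, the G2M ratio was the higher one in 18 genes and the S ratio in 4.

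**Figure D4:**
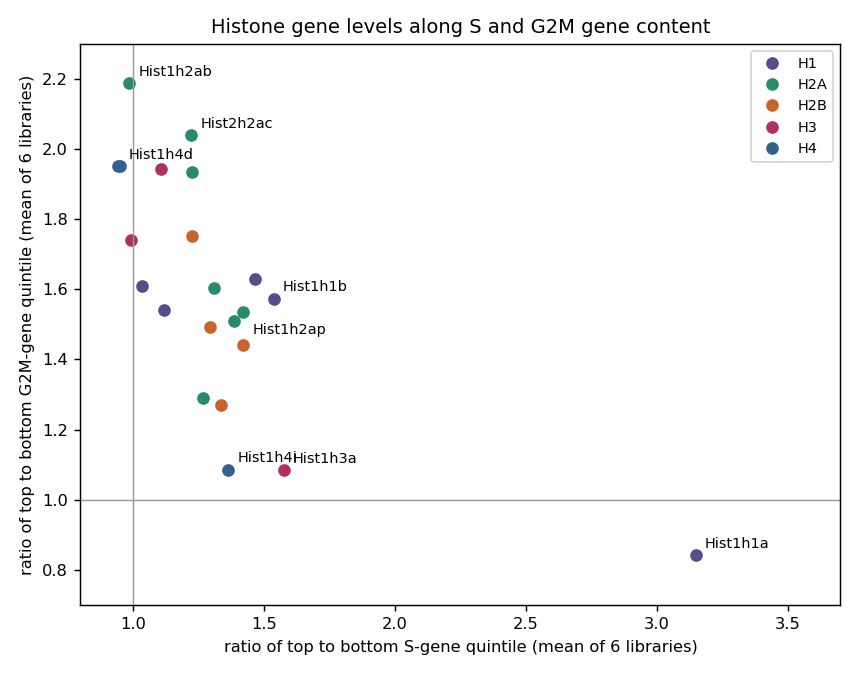
Ratio of the top to the bottom S-gene quintile (x axis) against the same ratio for G2M-gene quintiles (y axis) for the 22 tested histone genes, each the mean over 6 libraries and coloured by type. Hist1h1a stands alone at 3.15 and 0.842, and the H2A gene Hist1h2ab is highest on the G2M axis at 2.19.

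The lower histone level in knockout cells was found at every level of the S phase genes. Of the wild-type cells 22.9% to 24.1% fell in the top S quintile, against 15.3% to 16.7% of the knockout cells. The fraction of histone genes called lower by limma was 12 of 21, 15 of 22, 18 of 23, 17 of 23 and 17 of 24 tested from the lowest to the highest S quintile, while 11.2%, 10.8%, 10.7%, 9.12% and 8.28% of all tested genes were called lower. None was called higher, nor higher at an unadjusted p under 0.05, against 8.29%, 10%, 9.64%, 8.37% and 7.71% of all genes called higher. In the highest quintile the count fell to 8 without library A, 10 without B and 9 without C. Summed levels were 773 ± 16.8 ppm for wild-type and 574 ± 19.0 ppm for knockout libraries in the lowest quintile (SD, n = 3 each), and 1045 ± 64.3 and 778 ± 48.2 ppm in the highest. The ratios, 0.743 and 0.744, were close to each other. By type, the groups overlapped only for H2A in the lowest quintile (knockout library D 232.6 ppm, wild-type library C 230.5 ppm). Called lower in all 5 S quintiles were 12 genes, including Hist1h2bj, Hist1h3a, Hist1h3c and Hist1h1d. The share of all genes called lower in all 5 was not counted. The filter was applied again in each S and G2M quintile to the mean of both groups, so genes could enter through their wild-type level. Hist1h3i, under the filter over all cells, was called lower in 3 S quintiles.

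Over the G2M quintiles 12 of 17, 18 of 21, 19 of 24, 18 of 24 and 17 of 24 tested histone genes were called lower by limma, against 10.6%, 10.3%, 10.2%, 10.2% and 10.7% of all genes. None was higher at an unadjusted p under 0.05, while 8.45%, 11.3%, 11.3%, 10% and 9.72% of all genes were called higher. When cells were placed in both rankings at once, knockout was lower without overlap in 22 of the 25 combinations, with ratios of 0.71 to 0.825. The exceptions were the cells lowest in S and in the bottom or next G2M quintile (9.96 against 9.45, and 20.2 against 17.9 corrected counts per cell) and those highest in both (51.1 against 40.7), a combination with as few as 21 cells in a library. With each of the 25 combinations weighted by its share of all cells, the same in every library, the log2 difference of the summed level was -0.40. It was -0.47 without these weights. Limma's interaction test called no histone gene for a genotype difference that changed from the bottom to the top quintile. For S, 0 of 22 were called (2 at an unadjusted p under 0.05, 0% of all genes called). For G2M, 0 of 22 were called (4 at that p, each with a smaller difference in the top quintile, 0.0354% of all genes called). With so few calls among all genes, 0 calls cannot show that the differences were equal. Of all genes 969 of 8505 for S and 1290 of 8474 for G2M had an unadjusted p under 0.05 in limma's interaction test. For Hist1h1a the interaction was -0.01 (SE 0.12) in log2 for S.

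The deposited clusters, numbered 0 to 5 by the authors, all had the difference; cluster 6 held 24 cells and was not tested. Summed histone levels in wild type ran from 859 ± 25.8 ppm in cluster 0 and 859 ± 46.5 ppm in cluster 4 to 982 ± 27.9 ppm in cluster 1 (SD, n = 3), and in knockout from 607 ± 56.8 ppm in cluster 3 to 738 ± 57.6 ppm in cluster 1. In no cluster did the groups overlap in this sum, and the ratios were 0.733 to 0.754 except in cluster 3, at 0.643. By type, the groups overlapped for H1 in cluster 1 (knockout library E 348.7 ppm, wild-type library B 347.2 ppm). They also overlapped for H2A in cluster 5 (knockout library D 283.1 ppm, wild-type library C 279.2 ppm). Limma called lower 16 of 22 tested histone genes in cluster 0, 18 of 23 in cluster 1, 16 of 24 in cluster 2, 14 of 22 in cluster 3, 12 of 22 in cluster 4 and 12 of 22 in cluster 5. The matching shares of all tested genes were 12.8%, 9.62%, 11.7%, 3.85%, 7.47% and 4.68%. The filter was applied again in each cluster to the mean of both groups, so genes could enter through their wild-type level. Hist1h3i, under the filter over all cells, was called lower in 2 clusters. No histone gene was called higher or was higher at an unadjusted p under 0.05, while 9.06%, 9.22%, 8.39%, 4.54%, 5.33% and 4.9% of all genes were called higher.

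Called lower in all 6 clusters were Hist1h1a, Hist1h1d, Hist1h2bj, Hist1h2bm, Hist1h3a, Hist1h3c, Hist2h2ac and Hist2h2bb. The share of all genes called lower in every cluster was not counted. Hist1h2bj fell by 1.59 in cluster 5 and by 1.16 in cluster 1 on the log2(ppm + 1) scale, its largest and smallest falls among the clusters. The counts in clusters 1 to 5 depended on single libraries: without C they were 11 in cluster 1, 9 in cluster 2, 3 in cluster 3, 7 in cluster 4 and 4 in cluster 5, and without A 10, 9 and 4 in clusters 1 to 3 and 6 in cluster 5. Cluster 3 fell to 6 without B, and cluster 4 to 7 without D or F. Cluster 3 had as few as 61 cells in a library. When each cluster was set against the other cells, limma's interaction test called 0 of 22 to 23 histone genes, with 0 to 8 at an unadjusted p under 0.05. Of all genes 0.425%, 0.0236% and 0.0118% were called in clusters 0, 1 and 2 and 0% in clusters 3, 4 and 5. The 8 were in cluster 2, and each fell less there than in the other cells. Among all genes, from 606 of 8456 in cluster 5 to 1616 of 8465 in cluster 2 had an unadjusted p under 0.05 in this test. As the test called so few of all genes, 0 calls cannot show that a cluster had no difference of its own.

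**Figure D5:**
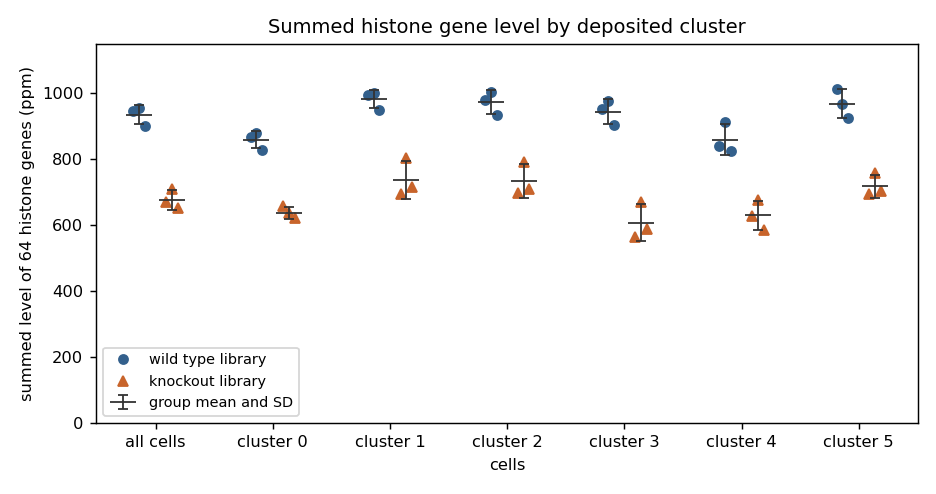
Summed level of the 64 histone genes in ppm for all cells and for deposited clusters 0 to 5, with 1 circle or triangle for each library and bars for the group mean and SD (n = 3). Every knockout library lies below every wild-type library in each cluster, and the gap is widest in cluster 3 (945 against 607 ppm).

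Cells rich in one histone transcript tended to be rich in the others. The correlation over cells within a library, averaged over the 6 libraries, was 0.61 for Hist1h1b and Hist1h2ap and 0.51 for Hist1h1b and Hist1h1e, with a median of 0.118 over the 231 pairs of tested genes. These points share cells, depth and sparse counts, so that the values are descriptive. Of genes outside the family, the DNA topoisomerase gene Top2a followed the summed histone level most closely (0.543), then the PCNA partner gene Pclaf (0.458) and the proliferation marker Mki67 (0.449). Tubb5, Fbxo5, Stmn1, Smc4, H2afx, Esco2, Tyms, Ubb and Aurkb completed the 12 highest, down to 0.34. The 8 lowest were Lat (-0.249), an adaptor of T cell receptor signalling, Mat2a, Dynll1, Acsl5, Hspa5, Rangrf, Gpx1 and Tomm20.

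Lists of genes for variant histones and for proteins that act on histones or their mRNAs had medians closer to 0 than the -0.54 of the tested histone genes. Of the replication-independent variants 10 of 11 were tested and their median difference was -0.09. H3f3a, a source of histone H3.3, fell by 0.17 on the log2(ppm + 1) scale (adjusted p = 0.0273 by limma). The linker variant H1fx was called higher by 0.55 (adjusted p = 0.0305 by limma). H1fx was at 3.83, 3.84 and 4.26 ppm in A, B and C and at 8.27, 5.05 and 5.90 ppm in D, E and F. Its wild-type levels were all under the filter of 5 ppm, so it was tested only through its knockout level. The other 8 were not called by limma. Of 21 genes for histone mRNA synthesis and 3′ processing 19 were tested, 7 fell and none rose, also at an unadjusted p under 0.05 (median -0.14). They were the cap-binding genes Ncbp1 and Ncbp2, Srrt, the Sm protein genes Snrpb, Snrpd3 and Snrpg, and Cpsf3, the nuclease that cuts these mRNAs, at -0.26 (adjusted p = 0.00672). Slbp, Npat, Casp8ap2, Lsm10, Lsm11 and Zfp473, which are also in this list, were not among the 7. Of 23 histone chaperone genes 6 fell and none rose, also at an unadjusted p under 0.05 (median -0.11): Asf1a (-0.33), Supt16 (-0.26), Nap1l4, Chaf1b, Ssrp1 and Nasp, of which Chaf1b and Nasp are also among the S phase genes. Set against the 13.4% of all genes called lower, these lists had 36.8% and 26.1%.

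The S and G2M genes themselves bear on the comparison. Of the 43 S phase genes 6 fell and Ccne2 rose (median -0.06), which is 14% lower against 13.4% of all tested genes. Their summed level was 4397 to 4492 ppm in libraries A to C and 4162 to 4244 ppm in D to F. Of the 52 G2M genes, 3 fell (5.77%) and Top2a rose by 0.19 (median -0.001), with sums of 7784 to 7888 and 7362 to 7804 ppm. Both sums were thus lower or nearly so in knockout, by much less than the histone sum. Their part in the histone difference was measured only through the quintile comparisons above.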

How the data were processed

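Gene expression was measured in single cells of 6 libraries. Cell Ranger 3.0.2, Seurat 3.0.0 and the mm10 build are named in the submitters' processing notes, with settings not given in the sources used here. What the authors deposited is a score, the sctransform-corrected count of each gene in each cell, already adjusted for depth, and no count model was applied to it. The authors' table also gives raw UMI counts per cell, used for depth only, per the file headers the percent of mitochondrial UMIs (at most 15.2 in any cell), and cluster numbers. The table names libraries by sequencing index and genotype, so they carry no replicate number.

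Corrected counts were summed over the cells of a library and divided by its total (ppm). For genes whose mean over libraries reached 5 ppm, limma 3.58.1 under R 4.3.3 compared log2(ppm + 1) between genotypes, two-sided, trended prior, Benjamini-Hochberg adjusted at 0.05, in all cells, clusters with at least 50 cells in each library, and quintiles; interactions used differences between subsets within a library. Fold changes on this scale understate those of low genes. The test was checked on simulated data. Library values are given for every gene called over all cells and for the 3 genes of highest mean in each histone type; of genes outside the family, the 12 highest and 8 lowest correlations with the histone sum. No doublet caller was run. Genes and gene lists were chosen with earlier results of these data known. Gene models are from GENCODE M21, promoters from RefSeq GRCm38.p6. Alternatives covered scaling, pseudocounts, filters, cells used, cell weights and leaving out each library. Python 3.11.15 with pandas 2.3.3 and scipy 1.17.1 was used for sums.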

Additional observations from a re-analysis of the deposited data

Results flagged for a closer look

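In cluster 3 the summed histone level stood on opposite sides of the other cells in the 2 genotypes. It was 0.0127, 0.0324 and 0.0020 above the other cells in wild-type libraries A, B and C and -0.25, -0.09 and -0.15 in knockout libraries D, E and F (log2), so that the difference between genotypes was -0.18. All 3 wild-type values are close to 0, the summed level was not tested, and no single gene passed the interaction test in this cluster (7 of 22 at an unadjusted p under 0.05, all with a larger fall in cluster 3). Of all genes 730 of 8436 had an unadjusted p under 0.05 in this cluster.

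Hist1h4m, under the filter in the main comparison, had a mean of 0.23 ppm in knockout libraries. It had 0, 0 and 1 corrected counts in A, B and C and 16, 78 and 42 in D, E and F, found in 0.467%, 1.38% and 0.757% of the knockout cells. In its model 88.1% of the windows of 100 bases also occur in other histone genes. The H4 gene Hist1h4n, whose model is among these, went the other way, with 189, 235 and 239 corrected counts in A, B and C and 83, 104 and 147 in D, E and F. Without the filter limma called Hist1h4m higher (0.29, adjusted p = 0.0283 on log2(ppm + 1)).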

How the results depend on the processing

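No result changed direction under any alternative tried. The 17 calls over all cells numbered 15 to 20 when libraries were left out, 30 with a filter of 1 ppm (47 genes tested), 38 without a filter (64 tested, 1 of them higher) and 6 with 20 ppm (9 tested); fewer or more genes enter under these filters by construction. At 20 ppm clusters 0 to 5 had 5, 6, 6, 7, 3 and 3 calls and the S quintiles 6, 5, 6, 6 and 5. Leaving out libraries gave 13 to 17, 10 to 20, 9 to 17, 3 to 20, 7 to 14 and 4 to 15 calls in clusters 0 to 5, and 8 to 17, 14 to 20, 14 to 22, 12 to 20 and 8 to 19 in the S quintiles. The shares of all genes called under these alternatives are not given here. The interaction counts stayed at 0 except in cluster 1, where 1 gene, Hist1h2bj, was called at 20 ppm (0.22, a smaller fall in cluster 1; adjusted p = 0.0453, against 0.114 as reported) and without library E (adjusted p = 0.0378). The cause was not tested. In another fit each of the 25 combinations of S and G2M quintiles was weighted by its share of all cells, the same in every library. This fit was chosen after seeing the data, like the fits without shared barcodes and with a total that leaves out the histone genes. It moved the log2 difference of the summed level from -0.47 to -0.40 and left 17 calls. Of 231 alternatives for these results 199 were within the limits set, and of 449 for single genes 439. No paired analysis was possible because the library names carry no replicate numbers. The values are corrected counts, so depth sets no counting limit that could be given for single genes, and genes near 1 ppm rest on few counts.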
